A study of Mus musculus with 17 samples.

Results

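Genes that mark blood vessel endothelium and encode its angiogenic receptors were followed across mouse MCA205 fibrosarcomas after local chemotherapy. The set holds 10 genes, namely Pecam1, Cdh5, Esam, Kdr, Flt1, Tek, Tie1, Emcn, Eng and Vwf. Its members are the 16 probes, of 45281 on the array table, whose annotated symbol is one of these genes. The measurement was taken on bulk tumour, so fewer endothelial cells and less RNA per endothelial cell cannot be told apart in any value below.

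MCA205 is a transplantable fibrosarcoma line, and all tumours grew in wild-type mice of the C57bl/6 background. They were injected with doxorubicin (DX), an anthracycline that damages DNA, or with phosphate-buffered saline (PBS). Each of 17 tumour samples gave 1 array, in 6 groups. On day 2, 3 samples had received PBS and 2 had received DX. On day 7 there were 3 samples with PBS, 3 non-responders to DX and 3 responders, and day 10 added 3 responders. Responders and non-responders were told apart by whether the tumour shrank, and PBS tumours of day 10 were not analysed here. No label says that replicates came from separate animals, so p-values measure the spread between these samples, which may be technical.

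Endothelial cells line every vessel of a tumour, and new ones sprout under vascular endothelial growth factor (VEGF), which acts through the receptor kinases encoded by Kdr and Flt1. The angiopoietin receptor Tek and its partner Tie1 govern whether vessels stay quiescent or remodel. Pecam1, Cdh5 and Esam encode adhesion molecules of the contacts between endothelial cells.

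Per array, 13728 to 15568 probes were detected, the median signal was 105.8 to 135.5, and replicates correlated at r of 0.965 to 0.991 over all features. Detected means a deposited detection p-value under 0.01. Skeletal muscle transcripts stood apart on 2 arrays, where 14 measured muscle genes averaged log2 11.11 (day 7 responder replicate 3) and 10.88 (day 10 responder replicate 3), against 4.66 to 7.75 on the other 15. Medians of comparisons that use these arrays are given with and without them. Levels below are normalized log2 signals, and a difference of 1 is a doubling. The level of one gene's probe cannot be set against that of another, so only arrays and groups are compared.

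The promoters of 3 members are shown. The levels of the first 2 were the most alike of any pair across arrays (r of 0.83). The third alone had a gap between groups that are neighbours in the order of its own means. The promoters are RefSeq sequences of build GRCm38.p6, from 250 bases before to 50 after the gene's start, read 5′ to 3′ along the gene. Emcn lies at chr3:137340828-137341127 on the plus strand, Flt1 at chr5:147725962-147726261 on the minus strand and Eng at chr2:32646345-32646644 on the plus strand.
Emcn: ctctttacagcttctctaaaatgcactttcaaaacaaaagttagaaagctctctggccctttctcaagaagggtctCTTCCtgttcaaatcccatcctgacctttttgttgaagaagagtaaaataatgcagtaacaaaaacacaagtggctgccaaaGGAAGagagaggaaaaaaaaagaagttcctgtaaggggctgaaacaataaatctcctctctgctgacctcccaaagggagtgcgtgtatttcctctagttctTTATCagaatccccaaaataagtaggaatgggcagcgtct
Flt1: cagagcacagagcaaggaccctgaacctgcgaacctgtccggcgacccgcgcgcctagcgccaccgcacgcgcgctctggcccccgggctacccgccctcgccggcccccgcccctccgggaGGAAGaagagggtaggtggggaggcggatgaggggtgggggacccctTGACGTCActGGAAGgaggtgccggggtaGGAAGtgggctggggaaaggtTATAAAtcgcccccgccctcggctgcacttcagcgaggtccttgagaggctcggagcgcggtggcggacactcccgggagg
Eng: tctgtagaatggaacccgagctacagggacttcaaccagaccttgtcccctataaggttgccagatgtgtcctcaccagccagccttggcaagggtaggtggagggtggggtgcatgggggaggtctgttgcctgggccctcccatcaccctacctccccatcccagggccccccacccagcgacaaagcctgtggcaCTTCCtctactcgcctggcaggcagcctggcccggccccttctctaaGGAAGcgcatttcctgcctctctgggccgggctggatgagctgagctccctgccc
Capitals mark matches, on either strand, to GGAAG (the core bound by ETS factors), GATAA (the GATA core), TGACGTCA (the cyclic AMP response element) and TATAAA (the TATA box), and no 2 matches overlapped here. Emcn held 2 ETS cores and 1 GATA core, Flt1 3 ETS cores, 1 cyclic AMP response element and 1 TATA box, and Eng 2 ETS cores. Of the 32851 promoters of this length in the table, 71.4% held the ETS core, 25.4% GATAA, 13.6% TATAAA and 1.79% TGACGTCA. The ETS core was thus common in promoters of any kind. Of the 10 members, 6 had a promoter in that table (Kdr, Tek and Tie1 besides those shown). Kdr held 1 ETS core, Tek 1 GATA core and Tie1 7 ETS cores. A match is a stretch of letters and not a binding site.

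Of the 10 genes, 7 were detected on all 17 arrays: Pecam1, Cdh5, Flt1, Emcn, Eng, Vwf and Esam. Tek was detected on 14 arrays and Tie1 on 2. Kdr, which encodes the main signalling receptor for VEGF in endothelium, was not measurable here. One of its probes was detected on 1 array, day 2 DX replicate 2, with a raw signal of 103 to 141 over all arrays, and the other on 0 arrays with 99.7 to 129. These signals lay around the array medians, and nothing follows from them about the receptor. Without Kdr, 9 members entered the tests, each through the brightest of its 11 probes detected on at least 2 arrays. Pecam1 and Cdh5 had a second such probe. A further probe each of Flt1 and Vwf was detected on 0 arrays, and one of Pecam1 on 1.

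**Figure D1:**
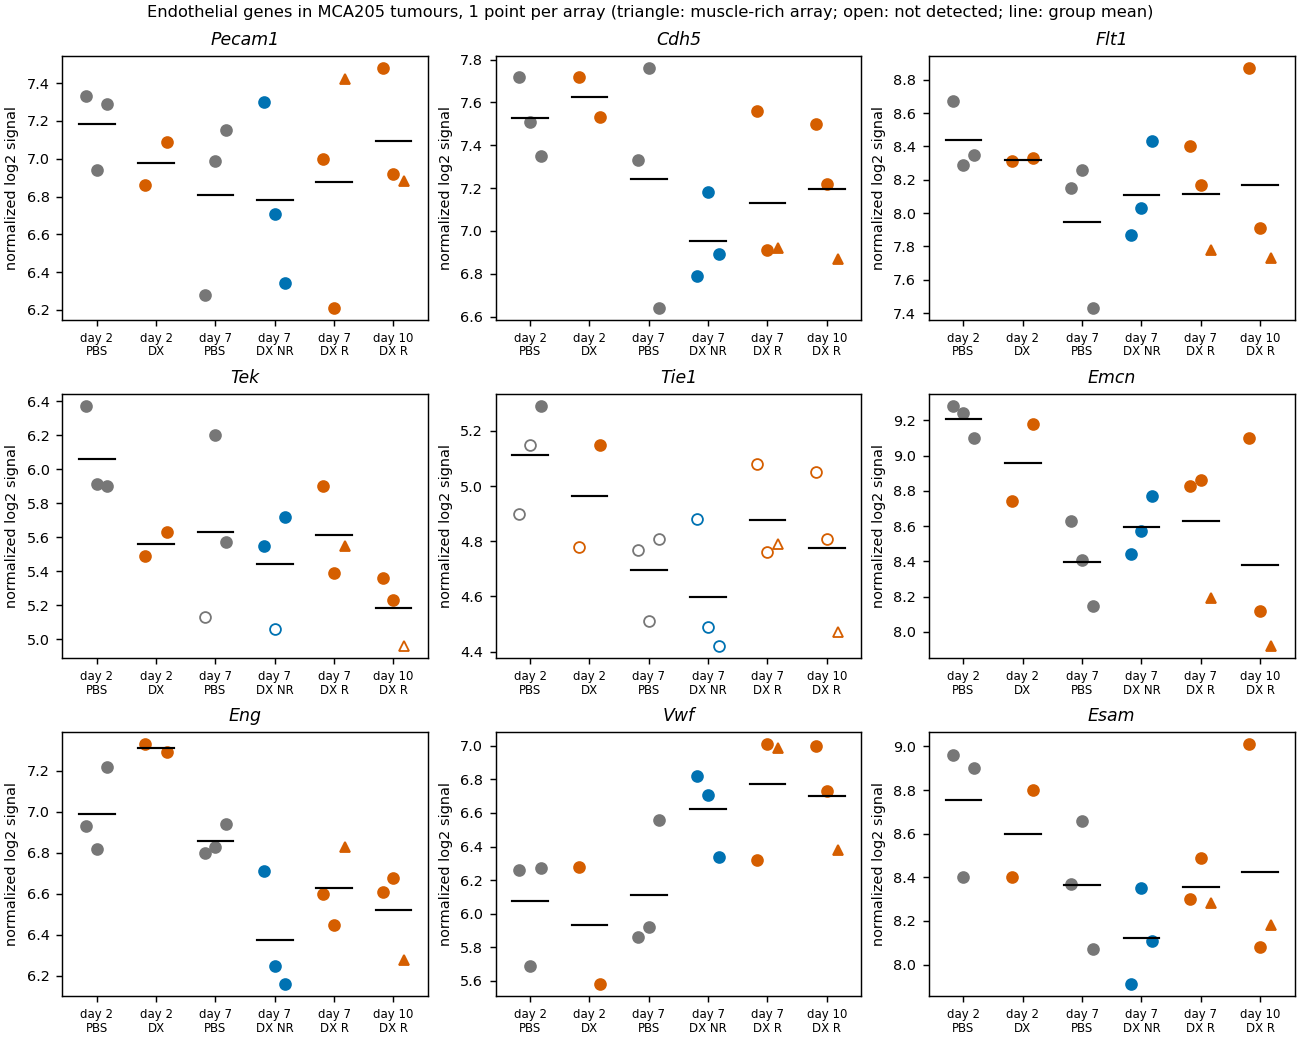
Normalized log2 signal (y axis) of the 9 measured genes on each of 17 arrays, by group (x axis; NR non-responders, R responders), with PBS in grey, non-responders in blue, other DX groups in orange, muscle-rich arrays as triangles, arrays without detection as open symbols and group means as lines. Emcn lies between 9.10 and 9.28 on the day 2 PBS arrays and between 8.15 and 8.63 on the day 7 PBS arrays, Eng is highest after DX on day 2, and Tie1 is mostly not detected.

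Among the junction genes, Cdh5, which encodes VE-cadherin, the adherens junction cadherin of endothelium, had log2 levels of 7.72, 7.51 and 7.35 on the day 2 PBS arrays and 7.72 and 7.53 after DX. Its day 7 levels were 7.33, 7.76 and 6.64 with PBS, 6.79, 7.18 and 6.89 in non-responders and 7.56, 6.91 and 6.92 in responders. The day 10 responders had 7.50, 7.22 and 6.87. The day 7 PBS arrays alone spanned more than the distance between the highest and the lowest group mean (7.63 and 6.95).

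Esam, an adhesion molecule of endothelial tight junctions and platelets, had 8.96, 8.40 and 8.90 on day 2 with PBS and 8.40 and 8.80 with DX. On day 7 it had 8.37, 8.66 and 8.07 with PBS, 7.91, 8.35 and 8.11 in non-responders and 8.30, 8.49 and 8.28 in responders, followed by 9.01, 8.08 and 8.18 on day 10. Pecam1, an adhesion molecule of endothelium that platelets and many leukocytes also carry, had 7.33, 6.94 and 7.29 on day 2 with PBS and 6.86 and 7.09 with DX. Neither gene separated its neighbouring groups. Pecam1 had 6.28, 6.99 and 7.15 on day 7 with PBS, 7.30, 6.71 and 6.34 in non-responders, 7.00, 6.21 and 7.42 in responders and 7.48, 6.92 and 6.88 on day 10. Its group means stayed within 0.41 of each other, less than the SD of the day 7 responders (0.61, n = 3).

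Flt1, VEGF receptor 1, which binds VEGF tightly and can act as a decoy, had 8.67, 8.29 and 8.35 on day 2 with PBS and 8.31 and 8.33 with DX. By day 7 it had 8.15, 8.26 and 7.43 with PBS, 7.87, 8.03 and 8.43 in non-responders and 8.40, 8.17 and 7.78 in responders. On day 10 it had 8.87, 7.91 and 7.73. The day 10 arrays spanned the whole range seen in the other DX groups.

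Tek, the angiopoietin receptor, had 6.37, 5.91 and 5.90 on day 2 with PBS and 5.49 and 5.63 with DX. Day 7 levels of Tek were 5.13, 6.20 and 5.57 with PBS, 5.55, 5.06 and 5.72 in non-responders and 5.90, 5.39 and 5.55 in responders. On day 10 it had 5.36, 5.23 and 4.96. The lowest array of the day 7 PBS, non-responder and day 10 groups was below detection, so the low end of Tek is not resolved. Tie1 was detected on day 2 alone, on PBS replicate 3 (5.29) and DX replicate 2 (5.15), and its levels on the other 15 arrays lay between 4.42 and 5.15 without detection. Differences of Tie1 therefore rest on values at the detection limit, which was log2 5.09 to 5.43 over the arrays.

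Emcn encodes endomucin, a sialomucin on the surface of capillary and venous endothelium. It had 9.28, 9.24 and 9.10 on day 2 with PBS and 8.74 and 9.18 with DX. Day 7 levels of Emcn were 8.63, 8.41 and 8.15 with PBS, 8.44, 8.57 and 8.77 in non-responders and 8.83, 8.86 and 8.19 in responders, and on day 10 it had 9.10, 8.12 and 7.92. All 9 arrays of day 7 lay below the 3 day 2 PBS arrays. The share of all features with this order was not counted.

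Eng encodes endoglin, a co-receptor for transforming growth factor beta and bone morphogenetic proteins that stromal cells and macrophages can carry too. It had 6.93, 6.82 and 7.22 on day 2 with PBS and 7.33 and 7.29 with DX. Day 7 levels of Eng were 6.80, 6.83 and 6.94 with PBS, 6.71, 6.25 and 6.16 in non-responders and 6.60, 6.45 and 6.83 in responders, and on day 10 it had 6.61, 6.68 and 6.28. Eng was the one member with a gap between neighbours in the order of its own means, day 2 DX above day 2 PBS. The share of all features with such a gap was not counted. Between groups that are not such neighbours, or in single comparisons below, Tek, Flt1, Tie1 and Emcn were apart too. Below the day 2 groups, the order of Eng ran from day 7 PBS through day 7 responders and day 10 responders to day 7 non-responders. Each neighbouring pair there overlapped.

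Vwf encodes von Willebrand factor, the clotting protein that endothelium stores in Weibel-Palade bodies and platelets in their granules. It had 6.26, 5.69 and 6.27 on day 2 with PBS and 6.28 and 5.58 with DX. On day 7 it had 5.86, 5.92 and 6.56 with PBS, 6.82, 6.71 and 6.34 in non-responders and 6.32, 7.01 and 6.99 in responders, and on day 10 it had 7.00, 6.73 and 6.38. Its order differed from that of the other members, with the 3 late DX groups on top (means of 6.62 to 6.77) and the other groups at 5.93 to 6.11.

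Each comparison was fitted with limma over all 12451 features, and a gene was called where the Benjamini-Hochberg adjusted p was under 0.05. By this rule 0 of the 9 measured members were called in any of the 7 comparisons. The standard errors of the members were 0.19 to 0.34 on the log2 scale for comparisons of groups, so a doubling lay outside most, though not all, of the 95% intervals.

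On day 2, DX tumours were compared with PBS tumours to ask what the drug had done to the vessel genes early. Members differed by a median of −0.15, against −0.02 for all features, with 7 of 9 below 0. Within the BeadChip that held both groups (1 DX and 2 PBS arrays), 5 of 9 were above 0 and the median was 0.01. The direction was thus not seen there, on a single DX array. None was called, with 0.61% of all features called, and none had an unadjusted p under 0.05, which 6.91% of all features had. Tek was lower on both DX arrays than on any PBS array (−0.50 ± 0.29 SE, adjusted p = 0.893 in limma). Groups were apart in this direction in 15.9% of all features, so 1 member of 9 is near the background. Eng was higher on both DX arrays than on any PBS array (0.32 ± 0.21, adjusted p = 0.922), a separation found in 12.2% of all features. The 95% intervals of the 9 members reached from −1.11 (Tek) to 0.76 (Eng).

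Red blood cell transcripts moved in the same comparison. Of 3 measured globin genes all 3 were called lower after DX, among them Hbb-bs, a beta globin (−2.92, adjusted p = 0.00569 in limma), whose call ended when either DX array was left out (adjusted p of 0.0847 and 0.105). The 3 globins averaged log2 8.68 to 9.82 on the PBS arrays and 5.99 to 6.72 on the DX arrays, and the red cell genes Alas2 and Slc4a1 were not measured. Hbb-bt (−2.72, adjusted p = 0.016) and Hba-a1 (−2.54, adjusted p = 0.0226) were the other globins. These calls held in 9 and 6 of 16 alternatives. The members' differences in the same tumours lay between −0.50 and 0.32, and the part of blood content in them was not tested.

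On day 7, responders were set against PBS tumours. Members had a median difference of 0.07 (0.03 without the muscle-rich arrays), against 0.01 for all features, and 0 of 9 were called, with 0.53% of all features called. An unadjusted p under 0.05 was found for 1 member and for 13.8% of all features. That member was Vwf, 1.58-fold higher (0.66 ± 0.27, 95% interval 0.10 to 1.22, adjusted p = 0.28 in limma). Its groups overlapped, since PBS replicate 3 (6.56) lay above responder replicate 1 (6.32). Without the 2 muscle-rich arrays the difference of Vwf was 0.55 (adjusted p = 0.516). None of the 9 members was apart between these groups, which was the case for 11.2% of all features in the higher and 7.98% in the lower direction. With the BeadChip as a block the median of the members was 0.23.

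Platelet transcripts are given beside Vwf, since platelets carry it. Of 9 platelet genes with a probe, 2 were measured, and Itga2b, Gp9, Gp1bb, Gp5, Gp6, Treml1 and Itgb3 were each detected on fewer than 2 arrays. The chemokine genes Pf4 (0.93, adjusted p = 0.132) and Ppbp (1.37, adjusted p = 0.259) were not called. Their mean was log2 6.92 to 7.56 on the day 7 PBS arrays, 6.90 to 8.89 on the non-responder arrays and 8.20 to 8.37 on the responder arrays. The part of platelets in the Vwf values was not tested.

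Non-responders against the same 3 PBS tumours gave a median of −0.10 over the members and 0.02 over all features. Again 0 of 9 members were called, with 0.129% of all features called. Eng, the 1 member with an unadjusted p under 0.05 (10.8% of all features), had the smallest p, at −0.49 ± 0.19 (95% interval −0.87 to −0.10, unadjusted p = 0.0172 and adjusted p = 0.351 in limma). All 3 non-responder arrays lay below all 3 PBS arrays for Eng, which 6.28% of all features also showed. No member was apart in the higher direction, as 8.45% of all features were. Within the BeadChip that held 2 arrays of each group the difference was −0.45. Vwf was 0.51 ± 0.27 higher (adjusted p = 0.507). In responders Eng stood at −0.23 ± 0.19 (adjusted p = 0.602).

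Responders against non-responders asked whether tumours that shrank differed in vessel genes. All 9 differences lay above 0, with a median of 0.17 against 0 for all features, but that of Tie1 is between 6 arrays on none of which it was detected. The others lay between 0.01 (Flt1) and 0.25 (Eng). Without the muscle-rich arrays the median was 0.21, and Pecam1 turned from 0.09 to −0.18. Over 18 alternatives the sign changed in 4 for Flt1, 4 for Emcn, 3 for Pecam1, 1 for Cdh5 and 1 for Tek. It changed in 0 for Eng, Esam and Vwf. No member was called by limma, with 0% of all features called. No member had an unadjusted p under 0.05 either, although 711 features (5.71%) did. No member separated the groups, as 5.51% of all features did in the higher and 5.42% in the lower direction. The 95% intervals of the 9 members ran from −0.55 to 0.74, so a difference of up to 0.74 in favour of responders was within the error. On the BeadChip with arrays of both groups (2 of responders and 1 of non-responders), 6 of 9 members were higher in responders.

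Day 10 against day 7 in responders gave a median of −0.07 (all features −0.01), and 0.12 without the muscle-rich arrays. None of the 9 members was called, with 0.00803% of all features called, and none had an unadjusted p under 0.05 (3.92% of all features). Tek was lower on each day 10 array (4.96 to 5.36) than on any day 7 responder array (5.39 to 5.90), a difference of −0.43 ± 0.26 (adjusted p = 1 in limma), or −0.35 without the muscle-rich arrays (adjusted p = 0.995). Such a separation was found in 4.44% of all features, and the opposite one in 2.79% and in no member. Day 10 replicate 1 was the highest array of its group for 8 of 9 members (not Eng), at 8.87 for Flt1, 9.10 for Emcn and 9.01 for Esam. Among the 3, this array also had the highest level of Adipoq (6.75), the 1 measured of 7 fat genes, and the highest mean of the 3 globins (11.66). The lists of other endothelial, ligand and co-receptor genes were highest on it too (6.86, 8.99 and 6.96). The part of tissue content was not tested.

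**Figure D2:**
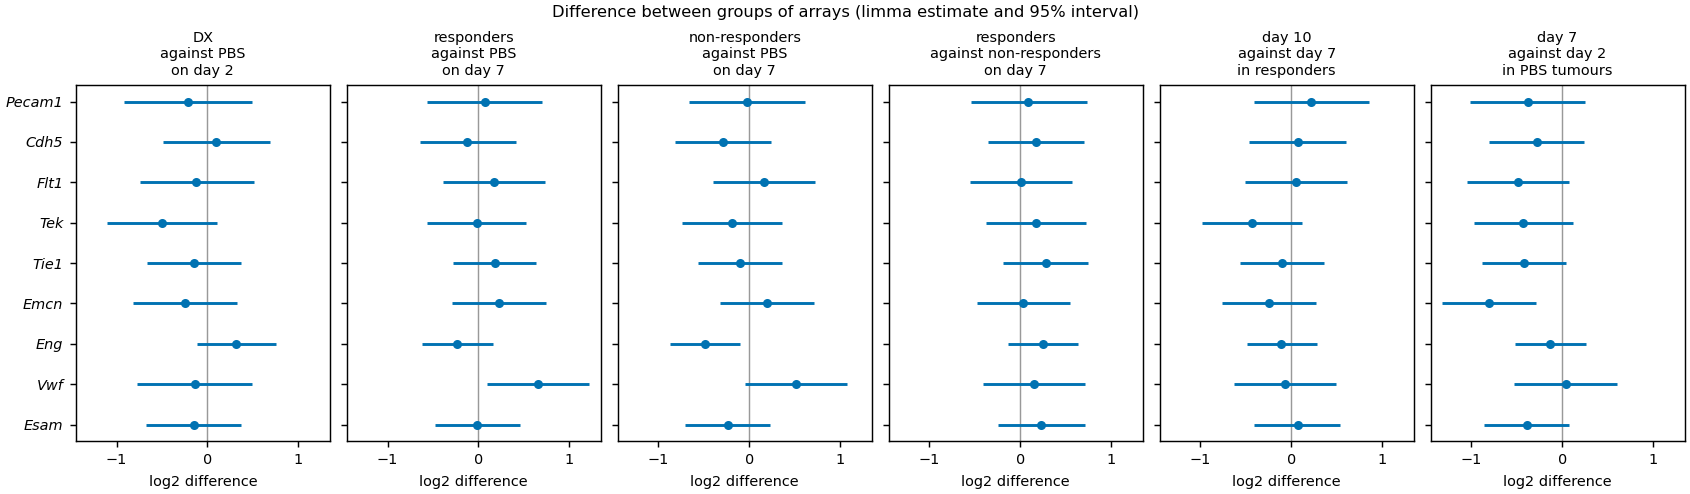
Log2 difference (x axis) of the 9 measured genes (y axis) in 6 comparisons of groups, as limma estimates (points) with 95% intervals (bars). Most intervals span 0; those of Emcn between days in PBS tumours (−1.32 to −0.29), Vwf in responders (0.10 to 1.22) and Eng in non-responders (−0.87 to −0.10) do not, and none of these was called after adjustment.

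Between day 2 and day 7 in PBS tumours, without any drug, the members had their largest median difference of the 7 comparisons. Of 9 measured members 8, the mostly undetected Tie1 included, were lower on day 7, with a median of −0.39 against −0.02 for all features. None was called after adjustment, with 0.634% of all features called, and 1 had an unadjusted p under 0.05 (14.5% of all features). This was Emcn, which differed most, at −0.81 ± 0.25 (1.75-fold lower, 95% interval −1.32 to −0.29, unadjusted p = 0.00397 and adjusted p = 0.14 in limma). With the 2 groups fitted alone its adjusted p was 0.0254, and over all 17 alternatives it ran from 0.0254 to 0.383 with differences of −0.93 to −0.66. Emcn was lower within each BeadChip that held both days, by −1.0 and −0.54.

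Flt1 was at −0.49 ± 0.27 (adjusted p = 0.417). It was lower on every day 7 array than on any day 2 array, as was Emcn, and 12.1% of all features showed this (10.5% the opposite, with no member). Tie1 had the same order of arrays, but it was detected on 1 of these 6 arrays and had passed the filter through day 2 arrays alone, so nothing is read from its difference. The other receptors and junction genes were lower with overlapping groups, namely Tek at −0.43, Esam at −0.39, Pecam1 at −0.38, Cdh5 at −0.28 and Eng at −0.13. Vwf alone was not lower, at 0.04. Within the BeadChips, 9 of 9 members, Tie1 included, were lower on day 7 in each, with medians of −0.48 and −0.29. The first of these held 2 day 7 arrays and 1 of day 2 (replicate 1, with the most muscle signal of the 6), the second 1 and 2. Members also varied together across arrays, so the 9 are not separate results. The second probes of Pecam1 (−0.44) and Cdh5 (−0.22) had the same sign as the first.

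Averaged over the 9 members after centring each on its own mean, the day 2 PBS arrays stood at 0.37, 0.10 and 0.29 and the day 7 PBS arrays at −0.19, 0.06 and −0.19. The day 2 DX arrays stood at 0.09 and 0.17, of which the second was inside the day 2 PBS range. Non-responders were at −0.09, −0.19 and −0.21 and responders at 0.10, −0.09 and −0.03. The day 10 arrays were the most scattered, at 0.33, −0.15 and −0.38. Day 2 PBS was thus the top group by this average, and its lowest array overlapped with single arrays of later groups.

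Skeletal muscle genes had the same sign between the PBS days. All 14 measured muscle genes were lower on day 7, with a median of −0.73 and 0 called. They averaged log2 6.90, 4.66 and 5.71 on the day 2 PBS arrays and 4.73 to 4.95 on the day 7 PBS arrays, and of the muscle genes with a probe Neb was not measured. The part of muscle in the members' shift was not tested. On the 3 day 2 PBS arrays the order of the members' average (0.37, 0.10 and 0.29) was that of the muscle average. An order of 3 arrays does not test the part of muscle. The muscle-rich arrays had members' averages of −0.03 (day 7 responder replicate 3) and −0.38 (day 10 responder replicate 3). Without day 2 PBS replicate 1, the array with the most muscle in this comparison, Emcn was at −0.77 (adjusted p = 0.36 in limma). Leaving out any other single array of this comparison gave −0.93 to −0.69, with adjusted p of 0.136 to 0.383.

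Other genes of endothelial identity mostly had the same sign without drug. Of 27 with a probe 20 were measured, and 15 of these were lower on day 7, with a median of −0.31. An unadjusted p under 0.05 in limma was found for 7 of the 20 and for 14.5% of all features. The 1 called gene was Ptprb, which encodes the phosphatase VE-PTP that acts on Tek and associates with VE-cadherin. Ptprb had log2 levels of 7.03, 6.21 and 6.52 on day 2 and 5.79, 5.36 and 5.26 on day 7, of which 1 was detected. It was 2.17-fold lower (−1.12 ± 0.24, adjusted p = 0.0351 in limma), and the groups did not overlap, as in 12.1% of all features in this direction. The call ended without any one of day 2 PBS replicates 1 and 3 and day 7 PBS replicates 2 and 3 (adjusted p of 0.0962 to 0.226), and over 17 alternatives it stood in 8. The size depended on the treatment of dim signal, at −0.74 with an offset of 50 and −0.45 both with the authors' values and without background correction. The difference was −1.71 and −0.58 within the 2 BeadChips. In DX tumours of day 7 Ptprb had 6.12, 6.10 and 6.05 (non-responders) and 6.52, 6.20 and 5.80 (responders), all above the 3 PBS arrays of that day. Such a separation was found in 8.45% (non-responders) and 11.2% (responders) of all features, and the lowest responder array (5.80) barely cleared the highest PBS array (5.79). The differences from PBS were 0.62 (adjusted p = 0.347) and 0.71 (adjusted p = 0.198), and they share the PBS arrays with the comparison of days.

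Partners of the receptors were compared between the same PBS groups. Of 16 co-receptor, tip cell and Notch genes 12 were measured, of which 11 were lower on day 7, with a median of −0.43 and 0 called. Plxnd1, a semaphorin receptor of endothelium, was at −0.14, Notch4, the endothelial Notch receptor, at −0.42 and Esm1, a tip cell proteoglycan, at −0.09. Of 12 genes listed for mural cells, the pericytes and smooth muscle around vessels, 7 were measured. Of these 5 were lower, with a median of −0.45 and 0 called, including Acta2, smooth muscle actin, at −0.22. The mural genes Rgs5, Kcnj8, Myh11, Tagln and Cnn1 were each detected on fewer than 2 arrays, so nothing is read from this about mural cells themselves. Of 14 angiogenic ligands with a probe 8 were measured and 7 of these were higher on day 7, with a median of 0.13 and 0 called. Vegfa, the main VEGF, was at 0.19 ± 0.14 (adjusted p = 0.589). An unadjusted p under 0.05 was found for 2 of the 7 mural genes and 1 of the 8 ligands. The lists were not tested as sets.

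**Figure D3:**
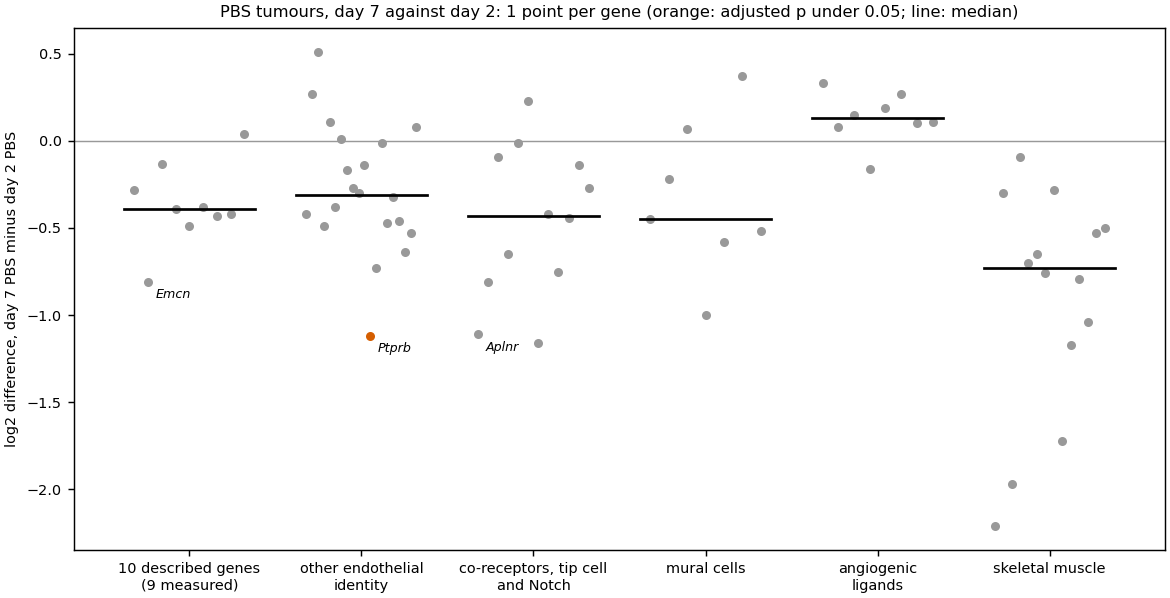
Log2 difference between day 7 and day 2 in PBS tumours (y axis), 1 point per measured gene, for 6 gene lists (x axis), with the list median as a line and the called gene in orange. Medians lie at −0.39 for the 9 measured members, −0.31 for other endothelial genes, −0.43 for co-receptor, tip cell and Notch genes, −0.45 for mural cells, 0.13 for ligands and −0.73 for muscle, and Ptprb is the one gene called.

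Whether the DX effect differed between days was tested as the day 7 difference (both response groups averaged) minus the day 2 difference. Members had a median of 0.24 (0.21 without the muscle-rich arrays) against 0.03 for all features, and 0 of 9 were called, with 0.225% of all features called. An unadjusted p under 0.05 was found for 1 member and 8.04% of all features. Eng was at −0.68 ± 0.26 (95% interval −1.23 to −0.13, unadjusted p = 0.018 and adjusted p = 0.497 in limma) and Vwf at 0.73 ± 0.38 (adjusted p = 0.654). Emcn was at 0.46 ± 0.35 (adjusted p = 0.781). The difference between the PBS days, with a members' median of −0.39, enters this comparison with its sign reversed. The 2 comparisons share all their PBS arrays and are not separate results.

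How the members varied among themselves was described by Pearson's r of their levels over 17 arrays, which share groups, BeadChips and any scatter in tissue content. Of 36 pairs 29 were positive. The 8 members other than Vwf gave 28 of 28 positive pairs, those of the mostly undetected Tie1 included. The share of positive pairs among all features was not counted. The lowest of these 28 were Pecam1 with Flt1 and with Emcn (0.06 each). Flt1 and Emcn were closest (0.83, and 0.78 without the muscle-rich arrays). Flt1 with Esam had 0.74, Cdh5 with Flt1 0.72 and Emcn with Esam 0.71. With group means removed, Flt1 and Emcn still had 0.87, and 21 of those 28 pairs were positive, so part of the joint variation lay between replicates. Vwf was negative with 7 of 8 members, lowest with Cdh5 (−0.54), and with group means removed it was negative with 4 of 8. Eng and Vwf turned from −0.42 to 0.53 on removing group means.

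**Figure D4:**
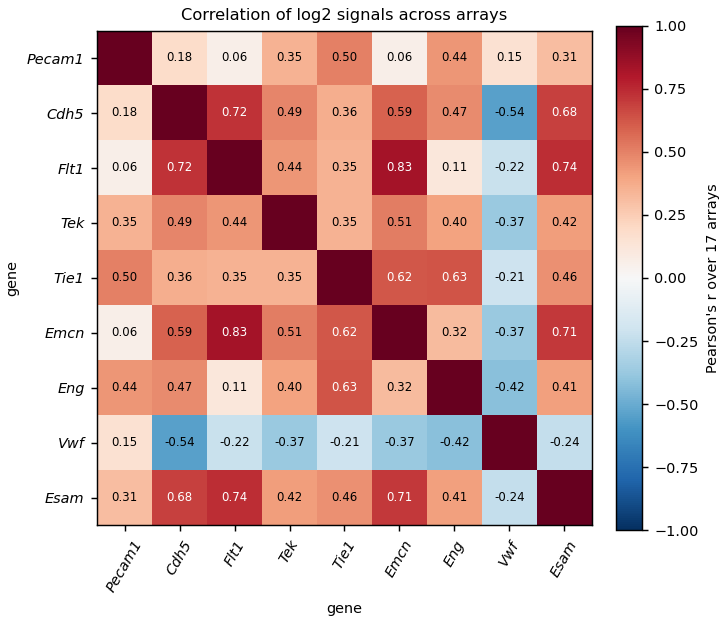
Pearson's r of normalized log2 signals over 17 arrays for each pair of the 9 measured genes (both axes; red positive, blue negative). Flt1, Emcn, Esam and Cdh5 form a block of high values up to 0.83, and the Vwf row is mostly negative, down to −0.54.

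Of 10026 other genes with a symbol, those most like the mean of the centred members over the 15 arrays without the muscle-rich pair were Pcca, a mitochondrial carboxylase subunit (r of 0.94, and 0.94 over all 17 arrays), and Aplnr, the endothelial apelin receptor (0.92 and 0.88). Next came Fxyd6 (0.87 and 0.70), Egfl7, a matrix protein secreted by endothelium (0.85 and 0.84), Gpx3 (0.85 and 0.69) and Aatk (0.84 and 0.76). Xirp2 (0.84 and 0.16) and Mb, myoglobin (0.84 and 0.13), are muscle genes, whose likeness was lost once the muscle-rich arrays were included. These genes were chosen for following the members, so their levels are a description. Aplnr had 6.16, 5.30 and 6.07 on day 2 with PBS and was detected on none of the day 7 PBS arrays. Levels of Egfl7 were 9.54, 9.08 and 9.52 on day 2 with PBS and 9.18, 9.12 and 8.70 on day 7 with PBS.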

How the data were processed

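Total RNA of bulk MCA205 tumours had been hybridised to Illumina mouse BeadChips, 3 chips with 17 arrays analysed here. Per the file headers, the deposited table gives each probe's signal intensity on each array, without normalization, next to its detection p-value, both as the authors' software wrote them. GenomeStudio 2011.1 is named per the submitters' processing notes, with settings not given in the sources used here. A deposited table of processed intensity values was used as an alternative.

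Signals were background-corrected with the detection p-values, quantile-normalized and put on the log2 scale by the neqc function (R 4.3.3, limma 3.58.1, offset 16, which pulls differences of dim probes towards 0). Probes detected at p under 0.01 on at least 2 arrays were kept (17674), the brightest per gene, giving 12451 features. The annotation gave 1 symbol to 34885 probes, several to 18 and none to 10378. All arrays entered 1 limma model with a mean for each of 6 groups and eBayes with trend (11 residual df), from which 7 comparisons were taken and adjusted over all features. The fit was tested on simulated data. Named from other lists were called genes, or otherwise up to 3 of the brightest. The number of arrays limits the precision.

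The members and gene lists were chosen with earlier results of these data known. Alternatives were another offset, the authors' values, quantile normalization without background correction, other probe filters, the mean of a gene's probes, BeadChip or replicate number as a block, no trend, compared groups alone, and leaving out each array or the muscle-rich pair.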

Additional observations from a re-analysis of the deposited data

Results flagged for a closer look

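The estimated DX effect on Eng had opposite signs on the 2 days, the pattern for which it was picked. It was called on neither day (adjusted p in limma of 0.922 on day 2, 0.602 in responders and 0.351 in non-responders). The share of all features with this pattern was not counted. Both day 2 DX arrays (7.33 and 7.29) lay above the day 2 PBS mean of 6.99, and all 6 day 7 DX arrays (6.16 to 6.83) lay below the day 7 PBS mean of 6.86. The highest of these 6 was inside the range of the day 7 PBS arrays (6.80 to 6.94). The day 7 effect minus the day 2 effect was −0.68 ± 0.26 on the log2 scale (unadjusted p = 0.018 and adjusted p = 0.497 in limma over all features), so the difference did not pass the test. Over 26 alternatives it stayed below 0, between −0.79 and −0.36, with adjusted p of 0.281 to 0.922. The cause was not tested. Among the 6 DX arrays of day 7, no member had an array far from the others.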

How the results depend on the processing

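Of 1163 values of single members under 29 alternative settings, 1 was called (Emcn between the PBS days, with the compared groups alone), and 68 had another sign than the value reported, 0 of them called. The background counts moved more. Called features numbered 76 (DX on day 2), 66 (responders against PBS), 16 (non-responders against PBS), 0 (responders against non-responders), 1 (day 10 against day 7), 79 (PBS days) and 28 (difference of DX effects). Leaving out 1 array gave 11 to 67, 0 to 78, 0 to 52, 0 to 0, 0 to 1, 8 to 57 and 1 to 35, with 0 to 0 members called. Responders against PBS gave 38 features with an offset of 50, 29 with the authors' values and without background correction, 23 with the BeadChip as a random block, 13 without the trend, and 0 with the BeadChip as a fixed block (749 at an unadjusted p under 0.05), with the replicate block (1672) and without the muscle-rich arrays (1395). Day 10 against day 7 gave 0 with the authors' values (486 unadjusted), without background correction (487), without a detection filter (1147), with the BeadChip as a fixed block (640), with the replicate block (474), with the compared groups alone (325) and without the muscle-rich arrays (601). The PBS days gave 51 without a filter, and 138 features and 1 member with the compared groups alone. DX on day 2 gave 45 without the trend and 169 with the compared groups alone, where non-responders against PBS gave 4 and responders against non-responders 1. The difference of DX effects gave 8 without the trend and 17 with the replicate block. Replicate numbers did not pair the arrays: deviations of same-numbered arrays correlated with a median of −0.01 (different numbers 0), and 3 of 17 arrays correlated best with their own number. The replicate block changed no call of a member. These causes were not tested. Dim signal limits Kdr, Tie1 and Tek: a filter of 6 arrays left Tie1 out.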

Other observations

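Among other vessel-related genes, Ccl21a, a chemokine of lymphatic endothelium that was singled out after its values were seen, was 1.98 ± 0.56 higher on day 7 than on day 2 in PBS tumours on the log2 scale (adjusted p = 0.118 in limma). On day 7 it was 1.76 ± 0.56 lower in responders (adjusted p = 0.181) and 1.81 ± 0.56 lower in non-responders (adjusted p = 0.254) than in those PBS tumours, and none of the 4 measured lymphatic genes was called in these comparisons. These differences of Ccl21a all use the day 7 PBS arrays and are not separate results. Ccl21a was detected on 11 arrays, and its mean log2 level was 5.78. The mean of the 4 lymphatic genes was log2 8.08, 7.64 and 6.95 on the day 7 PBS arrays. It was 6.92, 6.62 and 7.1 on the day 2 PBS arrays, so by this mean the groups overlapped. Prox1, the defining lymphatic transcription factor, was detected on fewer than 2 arrays. Vcam1, an adhesion molecule of inflamed endothelium that other stromal cells also make, was 0.50 ± 0.15 higher after DX on day 2 (adjusted p = 0.205), and Icam1 0.30 ± 0.31 (adjusted p = 0.999). The endothelial selectin genes Sele and Selp were each detected on fewer than 2 arrays. Vegfa was 0.50 ± 0.14 higher on day 10 than on day 7 in responders (unadjusted p = 0.00235, adjusted p = 1). It was the 1 of 8 measured ligands with an unadjusted p under 0.05, which 3.92% of all features had. That comparison includes both muscle-rich arrays.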
